A study of Caenorhabditis elegans with 2 samples.

Results

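The genes described here are the 346 nuclear genes that the Ensembl annotation of the WBcel235 genome (release 115) classes as snoRNA, out of 46890 nuclear genes of all classes. They were chosen by annotation alone, and the binding data had no part in the choice. By position, 183 lie inside a protein-coding gene on the same strand, 33 lie inside one on the opposite strand, and 130 lie outside any. Their lengths run between 54 and 344 bases, with a median of 130. The data are ChIP-seq peaks of ARID-1, a protein named for its AT-rich interaction domain, from whole Caenorhabditis elegans at the L4 larval stage, 47 h of age, raised from larvae that were starved at L1 after bleaching. The worms were of strain RW12194, in which CRISPR placed a TY1::EGFP::3xFLAG tag in the arid-1 gene at its own locus on chromosome V, and chromatin broken by sonication was precipitated with an antibody to GFP. There is 1 group, ARID-1 L4, with 2 biological replicates from different biosamples, so comparisons run between kinds of gene and not between conditions. Whole worms mix all tissues, and a peak in few cells cannot be told apart from a weak peak in many.

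Small nucleolar RNAs guide the chemical modification of other RNAs, chiefly ribosomal RNA. Those of the C/D kind direct 2'-O-methylation and those of the H/ACA kind direct pseudouridylation, each as the RNA of a protein complex with its own core proteins. Many animal snoRNAs sit in introns of genes for ribosomal and other housekeeping proteins and are cut from the spliced intron. Others are transcribed from promoters of their own, and in nematodes such promoters have been described upstream of small noncoding RNA genes, some of them resembling those of tRNA or snRNA genes. tRNA genes carry their promoter inside the gene as an A box and a B box, which RNA polymerase III factors bind, whereas snRNA genes carry theirs upstream.

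The sequences of 8 members show what stood next to the peaks. Each runs 5′ to 3′ on the strand of the snoRNA in the WBcel235 build and holds the 100 bases upstream followed by the whole gene, which begins at base 101. Capitals mark, in the upstream part, letters like an A box (TGGNNNAG, then GG 1 or 2 bases on), letters like a B box (GTTCNANNC or GTTCGA), and the letters CGGAAC. C51F7.3 at V:12303608-12303783 (+), M106.6 at II:10840217-10840391 (+), Y43F8C.22 at V:19643050-19643287 (-) and C53B7.8 at X:6867838-6868008 (+) stand for members with A or B letters under a peak. F01D5.12 at II:14018354-14018541 (-) and Y67A10A.14 at IV:14326948-14327221 (-) stand for members with CGGAAC under a peak. ZK994.7 at V:8500479-8500645 (+) is the member with the highest signal and has none of the letters. K07C5.10 at V:10351218-10351453 (-) lies in nol-56 and has no peak in the conservative list of the series, described below.
C51F7.3: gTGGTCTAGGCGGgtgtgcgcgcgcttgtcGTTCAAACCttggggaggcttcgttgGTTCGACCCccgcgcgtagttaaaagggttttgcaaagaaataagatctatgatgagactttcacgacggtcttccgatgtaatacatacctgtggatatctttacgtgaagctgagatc
M106.6: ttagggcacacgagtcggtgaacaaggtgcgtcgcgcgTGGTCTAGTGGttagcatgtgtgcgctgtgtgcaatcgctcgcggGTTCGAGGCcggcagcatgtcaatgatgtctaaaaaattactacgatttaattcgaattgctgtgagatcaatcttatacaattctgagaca
Y43F8C.22: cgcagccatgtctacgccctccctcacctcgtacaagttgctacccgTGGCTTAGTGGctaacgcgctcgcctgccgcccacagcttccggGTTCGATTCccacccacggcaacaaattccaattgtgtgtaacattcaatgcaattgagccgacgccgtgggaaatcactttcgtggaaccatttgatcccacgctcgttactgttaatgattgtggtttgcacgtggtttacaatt
C53B7.8: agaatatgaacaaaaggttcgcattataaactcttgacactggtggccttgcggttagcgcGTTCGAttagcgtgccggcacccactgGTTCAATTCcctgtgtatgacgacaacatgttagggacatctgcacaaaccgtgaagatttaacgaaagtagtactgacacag
F01D5.12: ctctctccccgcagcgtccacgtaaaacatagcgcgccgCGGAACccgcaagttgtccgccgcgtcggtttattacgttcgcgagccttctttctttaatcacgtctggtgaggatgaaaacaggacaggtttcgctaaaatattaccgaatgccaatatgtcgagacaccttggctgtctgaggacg
Y67A10A.14: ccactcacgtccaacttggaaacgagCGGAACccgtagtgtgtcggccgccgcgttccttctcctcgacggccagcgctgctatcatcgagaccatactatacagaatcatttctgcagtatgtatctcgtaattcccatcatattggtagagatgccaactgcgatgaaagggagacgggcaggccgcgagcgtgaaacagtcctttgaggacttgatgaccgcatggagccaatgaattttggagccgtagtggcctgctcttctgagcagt
ZK994.7: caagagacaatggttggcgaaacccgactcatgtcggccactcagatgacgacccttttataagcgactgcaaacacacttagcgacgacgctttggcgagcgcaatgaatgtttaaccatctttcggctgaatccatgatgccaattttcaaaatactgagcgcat
K07C5.10: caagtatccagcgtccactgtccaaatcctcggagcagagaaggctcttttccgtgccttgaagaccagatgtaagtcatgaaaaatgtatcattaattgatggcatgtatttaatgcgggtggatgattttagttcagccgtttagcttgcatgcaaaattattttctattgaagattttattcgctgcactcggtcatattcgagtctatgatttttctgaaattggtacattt

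ARID-1 peaks were found on 80 of the 346 snoRNA genes. This is 23.1% of them (exact binomial 95% interval 18.8 to 27.9%), against 4.85% of all nuclear genes, 0.881% of genome windows of 130 bp and 0.624% of intron windows of 130 bp. The count rests on the conservative list of the series, which the authors made from both replicates and which holds 2306 nuclear peaks, and 1 bp of overlap was enough. The lists made from each replicate alone gave 70 snoRNA genes (20.2%) in replicate 1 and 69 (19.9%) in replicate 2, with 0.436% and 0.446% of genome windows in those lists. The share was 20.1% ± 0.21 over the replicate lists (SD, n = 2). Both replicate lists held 56 of the members, and of the 80 members in the conservative list 51 were in both replicate lists, 19 in 1 of them and 10 in neither. Among other small RNA genes, the same conservative list covered 60.0% of 612 tRNA genes, 26.4% of 129 snRNA genes, 1.92% of miRNA genes, 0.0651% of piRNA genes and 6.61% of genes classed as other ncRNA. The snoRNA share was thus close to that of snRNA genes and lay between those of tRNA and miRNA genes. None of the peaks on snoRNA genes also touched a tRNA or snRNA gene. A peak touched an ncRNA gene as well at 25 of the 80. Without replicates of a second group these shares carry counting error only, and the differences between gene classes were not tested.

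In the thresholded lists, snoRNA genes inside a protein-coding gene on its own strand carried peaks least often. In each replicate's ranked list, the longer list before any threshold, their share was also lowest, but close to that of members outside. In the ranked list of the series it was not the lowest. Of the same-strand members, 31 of 183 were overlapped (16.9%, interval 11.8 to 23.2%), against 10 of 33 on the opposite strand (30.3%, 15.6 to 48.7%) and 39 of 130 outside (30%, 22.3 to 38.7%). In the replicate lists the same-strand shares were 13.7% and 15.3%, the opposite-strand shares 30.3% and 21.2%, and the outside shares 26.9% and 26.2%, for replicates 1 and 2 in that order. The means were 14.5% ± 1.16 for same-strand, 25.8% ± 6.43 for opposite-strand and 26.5% ± 0.54 for outside members (SD, n = 2 replicate lists). The same-strand share was below the outside share in both replicates' thresholded lists, by more than the spread between the lists. Both lists score the same genes, so that spread does not measure counting error. The exact intervals of these 2 classes overlap in the conservative list and in replicate 2. In replicate 1 they barely part, with same-strand up to 19.5% and outside from 19.52%. The interval of the opposite-strand share in the conservative list spans both other shares. All of these lie above the 4.85% of nuclear genes. In the ranked lists the same-strand and outside shares were 48.6% and 50.8% in replicate 1 and 48.6% and 50% in replicate 2. The opposite-strand shares there were 66.7% and 57.6%, and 14.6% and 15.9% of genome windows met a peak. In the ranked list of the series the outside share was lowest. It was 54.6%, with 62.3% of same-strand and 69.7% of opposite-strand members, against 28.8% of windows. The differences between classes were not tested. In the conservative list the gap was smaller away from gene starts: without the 76 members within 500 bp of a protein-coding 5' end, the same-strand share was 19.2% and the outside share 23.3%. Inside same-strand hosts, 28 of 143 members lying wholly in introns were overlapped (19.6%), against 3 of 40 that reach into an exon (7.5%). On the opposite strand these counts were 10 of 27 in introns and 0 of 6 in exons, where a count of 0 allows a share of up to 45.9% (exact interval).

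**Figure D1:**
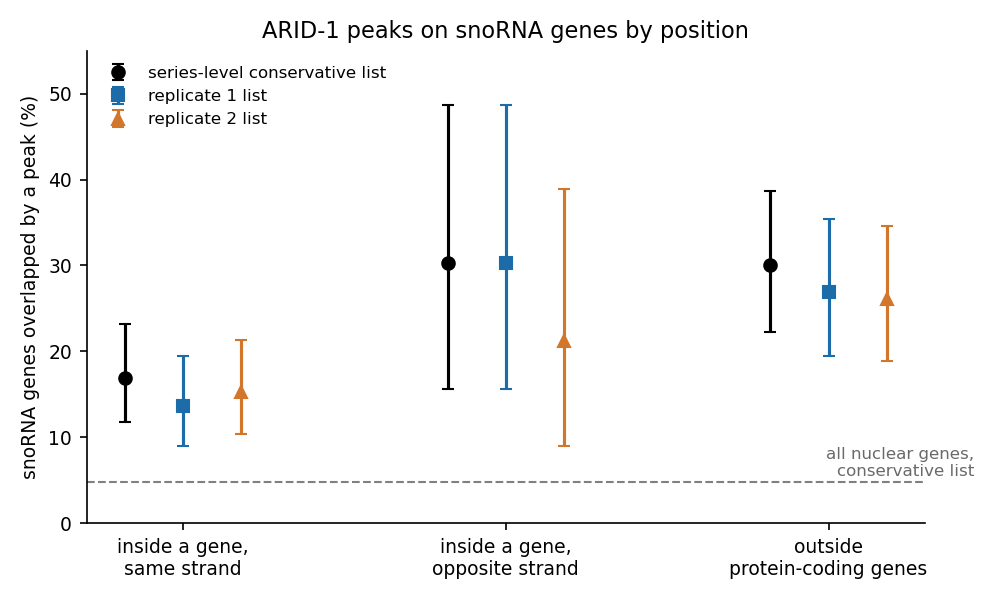
Share of snoRNA genes overlapped by at least 1 bp of an ARID-1 peak, in percent, by position relative to protein-coding genes, for the conservative list and each replicate's list. Points are shares and bars exact binomial 95% intervals, and the dashed line is the 4.85% of all nuclear genes in the conservative list. Same-strand members sit lowest in every list, and all points lie above the line.

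The summit, the highest point of a peak, lay just upstream of the snoRNA gene in most cases. Over the 80 overlapped members the median summit was 31.5 bp upstream of the annotated 5' end (a position of -31.5), with quartiles of -52.5 and -3.25. The summit was upstream at 62 (77.5%), inside the gene at 16 and beyond its 3' end at 2. Medians were -30 for same-strand, -13.5 for opposite-strand and -35.0 for outside members, and 24 of 31, 6 of 10 and 32 of 39 summits in these classes were upstream. Each replicate's ranked list placed the summit alike, with a median of -34.0 in replicate 1 and -32.0 in replicate 2 over the 76 members that each one touches. tRNA genes differed: over their 367 overlapped genes the median summit was 18 bp inside the gene, and 19.6% of summits were upstream. For the 34 overlapped snRNA genes the median was 10.5 and 47.1% were upstream. Peaks of the conservative list have a median width of 270 bp, so a peak that touches a gene can have its summit on either side, and sonicated fragments limit how finely a summit places binding.

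**Figure D2:**
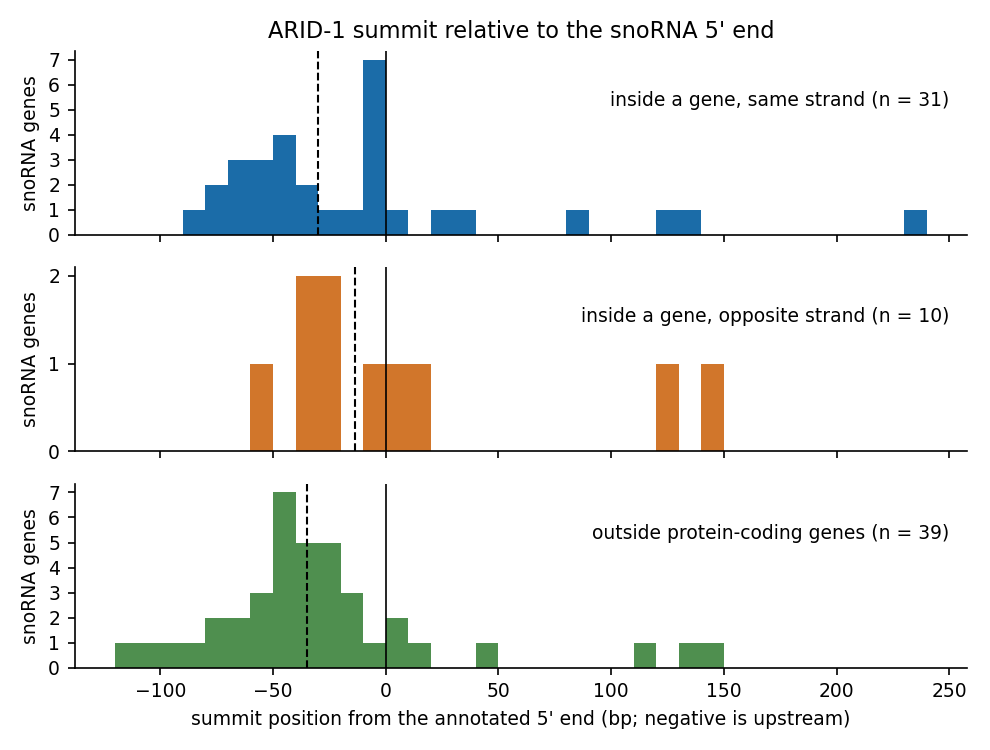
Number of overlapped snoRNA genes by the position of the ARID-1 summit from the annotated 5' end, in bp with negative values upstream, for each position class. The solid line marks the 5' end and the dashed line the class median, at -30, -13.5 and -35.0 from top to bottom. Most summits stand left of the solid line in each class.

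The strongest peaks on snoRNA genes stood inside pxn-1 and frm-7, on the strand of the host. Signal is the authors' value per peak, without a stated scale, and each replicate's value comes from its ranked list. ZK994.7 (67 bases, V:8500579-8500645), in an intron of pxn-1, which encodes a peroxidasin, had a signal of 254 in replicate 1 and 209 in replicate 2, or 231 ± 32.1 (SD, n = 2), with its summit at -30. C51F7.3 (V:12303708-12303783) and C51F7.4 (V:12303599-12303693), a pair in the FERM-domain gene frm-7 with 14 bases between them, share 1 peak, with 213 and 207 (210 ± 3.87). The summit of this peak is at -74 from the 5' end of C51F7.3 and lies inside C51F7.4, at 35. Both peaks are therefore high in each replicate, and frm-7 is the only host with more than 1 overlapped member. M106.6 (II:10840317-10840391), in an intron of mix-1, which encodes a condensin subunit, had 113 and 85.7 (99.4 ± 19.4). Among the overlapped members as a whole, the conservative signal had a median of 121, against 76.0 over all 2306 nuclear peaks of that list. Of the 100 nuclear peaks with the highest signal, 14 lay on a snoRNA gene, against 3.43% of all nuclear peaks of the list.

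On the opposite strand of a host, T03F7.8 (V:11314258-11314332), in the cuticlin-like gene cutl-18, had signals of 170 and 149 in replicates 1 and 2 (160 ± 14.4). ZK484.9, in haf-9, a half-ABC transporter gene, had 114 and 126 (120 ± 8.42). B0334.12 (II:11484683-11484752), in the potassium channel gene twk-5, had 110 and 128 (119 ± 12.3). Its summit was at 123, past the 3' end of the 70-base gene, unlike those of the other 3 named here. C27H5.9 (II:7184010-7184078), in pdl-1, had 73.1 and 112 (92.3 ± 27.2). Outside protein-coding genes, among members with a ranked peak on the gene in both replicates, the highest mean signals were those of ZK265.10 with 135 and 161 (148 ± 18.4), and F59C6.15 with 134 and 113 (124 ± 14.9). T06C12.16 (V:15873855-15873926) had 121 and 112 (117 ± 6.27), and Y75B12B.12 (V:15190976-15191093) had 106 and 116 (111 ± 6.99). Peaks whose ranked interval missed the gene in a replicate reached such values too: at the conservative peak, W03C9.9 had 155 and 195 and T19B4.8 had 143 and 143 outside genes, and C10C6.8 in catp-8, on the same strand, had 85.1 and 127.

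The replicates differed little at most overlapped members. These were picked through the conservative list, which requires reproducible peaks, so such agreement was favoured by the choice. The 60 members not overlapped that had a ranked peak on the gene in both replicates are left out here. Of the 73 overlapped members with a peak on the gene in both ranked lists, 57 differed by at most a factor of 1.5, and the median log2 ratio of replicate 2 to replicate 1 was 0.10. Median signal was 58.4 in replicate 1 and 54.2 in replicate 2 (76 members each), with 56.8 and 58.3 for same-strand, 67.3 and 82.5 for opposite-strand, and 55.9 and 52.0 for outside members. These class medians differ by less than the range within each class. F54F11.6 in sre-45, a chemoreceptor-like gene, was nearly equal with 40.9 in each replicate, and so were ZK20.9 with 45.9 and 45.1 and Y74C9A.6 with 52.1 and 51. C16D9.11, in the receptor tyrosine kinase gene rol-3, differed most, with 31.7 and 71.9. K11C4.6 in unc-70, the beta-spectrin gene, had 33.0 and 62.4, and M03D4.78, outside genes, had 39.0 and 71.9. The other 7 overlapped members lacked a ranked peak on the gene itself in at least 1 replicate. For 6 of those 7, the authors' conservative peak did meet a ranked peak in each replicate. F25H2.15 is the exception: its conservative peak had a signal of 2.30 and met a ranked peak, of 59.9, in replicate 1 only.

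**Figure D3:**
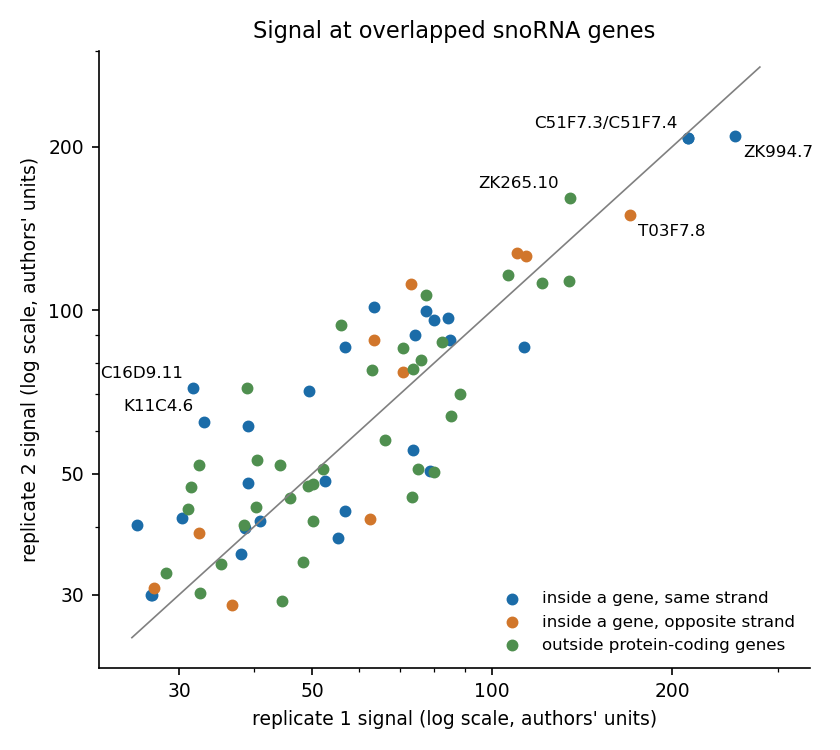
Signal of replicate 2 against replicate 1, both on log scales in the authors' units, for the 73 overlapped snoRNA genes with a peak on the gene in both ranked lists, coloured by position class. The grey line marks equal values. ZK994.7 and the C51F7.3/C51F7.4 pair stand highest, and C16D9.11 and K11C4.6 lie farthest above the line among the labelled genes.

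The 100 bases upstream of overlapped members held tRNA-like and snRNA-like promoter letters far more often than those of the others. The A box letters stood in 24 of 80 overlapped members (30%), against 11 of 266 not overlapped (4.14%) and 0.774% of all 100-base genome windows read on 1 strand. The B box letters GTTCNANNC stood in 18 of 80 (22.5%), against 15 of 266 (5.64%) and 1.76% of windows. The shorter GTTCGA, which can overlap them, stood in 17 (21.2%), against 7 (2.63%) and 1.90%. CGGAAC stood in 18 of 80 (22.5%), against 10 of 266 (3.76%) and 1.23% of windows. Any of these was present at 48 of 80 overlapped members (60.0%), against 33 of 266 (12.4%) and 5.17% of windows. For reference, inside tRNA genes the A letters stood in 41.8% and GTTCNANNC in 95.9%, and CGGAAC stood upstream of 26.4% of snRNA genes. The letters stood on the strand of the snoRNA: on the other strand of the same windows, the A letters were found at 1 overlapped and 4 other members, GTTCNANNC at 0 and 3, GTTCGA at 0 and 5, and CGGAAC at 1 and 2. TATAAA was no more frequent upstream of overlapped members, with 3 of 80 (3.75%) against 19 of 266 (7.14%), and 6.24% of windows. The A box, GTTCNANNC and CGGAAC letters were chosen after the upstream sequences of overlapped members had been seen, so their counts describe these genes and are no test. No annotated tRNA or snRNA gene lies in these upstream windows, for any of the 346 members. Annotated pseudogenes lie in the windows of 2 overlapped and 3 other members, and another snoRNA gene in those of 1 and 3. Among the 48 overlapped members with letters, 1 has a pseudogene there and 1 a snoRNA gene. The kind of pseudogene was not examined.

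The same counts can be read the other way, with the same limit that most of the letters were chosen after the sequences had been seen. Of the 81 members with such letters, 48 were overlapped (59.3%), against 32 of the 265 without (12.1%). The same held for members inside a gene on its own strand, with 19 of 34 (55.9%) against 12 of 149 (8.05%), and for members outside, with 23 of 35 (65.7%) against 16 of 95 (16.8%). On the opposite strand the counts were 6 of 12 and 4 of 21. The classes differed in which letters they held. The A letters stood at 13 of 31 overlapped same-strand members (41.9%) and at 8 of 39 outside (20.5%), whereas CGGAAC stood at 4 of 31 (12.9%) and 12 of 39 (30.8%). No member had both CGGAAC and A or B letters. CGGAAC members include both that carry the name of a SmY RNA, a nematode RNA bound by Sm proteins and linked to trans-splicing, which the annotation counts as snoRNA. smy-2, in an intron of C33A12.3 (IV:9511395-9511466), had signals of 39.1 and 48 (43.5 ± 6.35), and smy-3, outside genes (V:14092572-14092651), had 31.4 and 47.4 (39.4 ± 11.3).

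**Figure D4:**
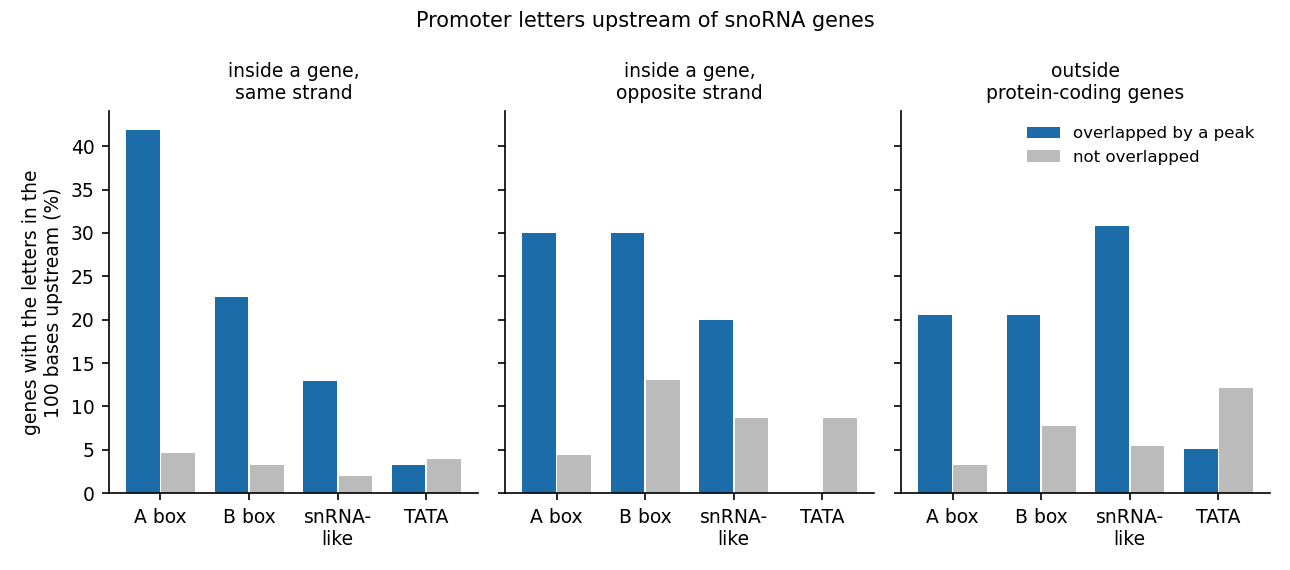
Share of snoRNA genes, in percent, with each set of letters in the 100 bases upstream, for members overlapped by a peak and not overlapped, in each position class. A box and B box are TGGNNNAG with GG 1 or 2 bases on and GTTCNANNC, snRNA-like is CGGAAC, and TATA is TATAAA. Bars of overlapped members stand higher for the first 3 and lower for TATA in each class.

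Each set of letters began at a similar distance from the gene in most members. The A letters began at a median of 60 bases upstream (-60.0, quartiles -64.0 and -56), GTTCNANNC at -14.0 (-20 and -12), and CGGAAC at -63.0 (-70.5 and -61.0), over all members that have them. In the 21 members with A letters and B letters of either form, the B letters began a median of 44.0 bases after the A letters, and 44.0 was also the median in the 238 tRNA genes with both. Of those 21 members, 16 were overlapped. Summits of overlapped members with A or B letters had a median of -41.5, between the median starts of the A and B letters, and 29 of these 30 summits were upstream. Members with CGGAAC had a median summit of -18 (18 members), and overlapped members with none of the letters had -25.5 (32 members). Signal was highest with A or B letters in both replicates: the medians with A or B letters were 75.6 and 85.7, with CGGAAC 44.5 and 47.7, and with none 48.2 and 47.4, for replicates 1 and 2 in that order. Of the sequences printed above, the upstream window of C51F7.3 is for the most part the gene C51F7.4.

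**Figure D5:**
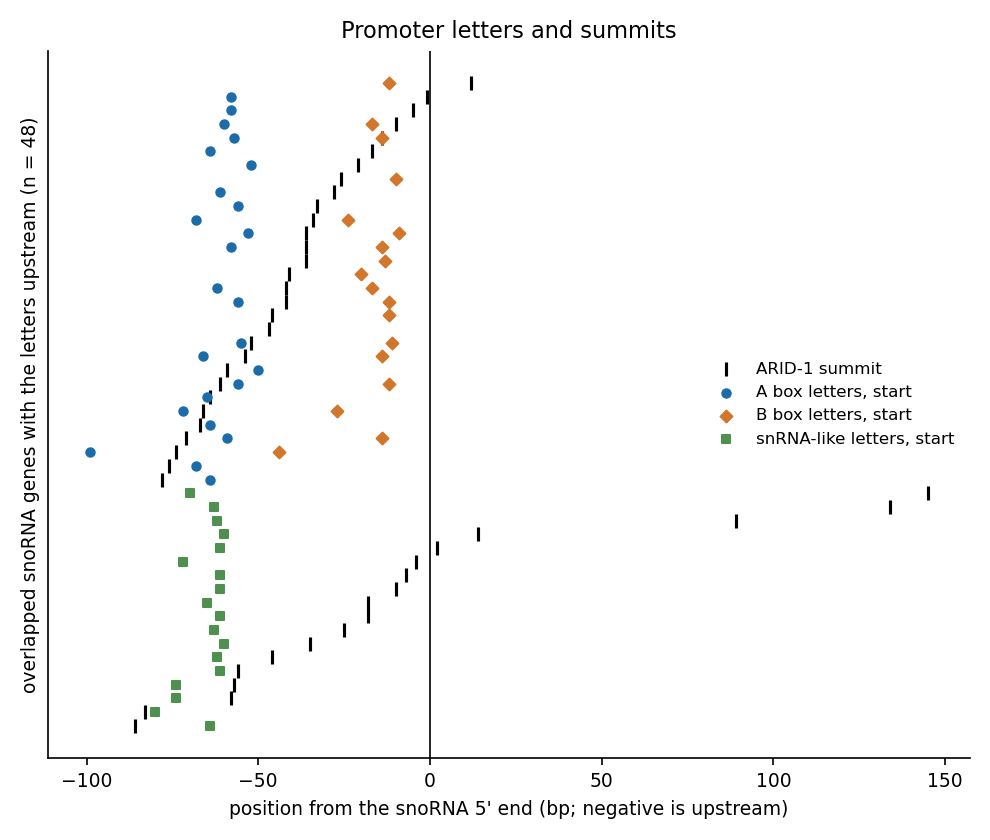
Position of the ARID-1 summit and of the promoter letters, in bp from the snoRNA 5' end with negative values upstream, for the 48 overlapped members with A box, B box (here GTTCNANNC) or snRNA-like (CGGAAC) letters; members with GTTCGA alone show a summit only. Each row is 1 member, ordered by summit within the members with A or B letters (top) and with CGGAAC (bottom). A box letters cluster near -60 and B box letters near -14, with most summits of those rows between or near them.

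Overlapped members also differed in base composition, length and downstream sequence. Their upstream 100 bases had a median GC content of 55%, against 41.0% in members not overlapped, and the difference was present in each class, at 56% against 40% for same-strand, 55% against 44.0% for opposite-strand and 54.0% against 43% for outside members. Overlapped genes were shorter, with a median of 93 bases against 133. Of the 95 members up to 100 bases long 42 were overlapped (44.2%), against 38 of 251 longer ones (15.1%), although a longer gene has more bases that a peak can touch. A run of TTTT, the letters at which RNA polymerase III can stop, stood within 50 bases after 66 of 80 overlapped members (82.5%), against 175 of 266 (65.8%) and 51.3% of 50-base genome windows. The part of GC content, length or the promoter letters in the overlap was not tested. By their own letters, 10 of the 15 members with box C (TGATGA) and box D (CTGA) were overlapped (66.7%, interval 38.4 to 88.2%), against 15 of 56 with H/ACA letters (26.8%) and 55 of 275 with neither (20.0%). Only these exact letters were searched, so a member of neither kind by this rule may still be of either. By chromosome the share ran between 6.06% on X (2 of 33, interval 0.74 to 20.2%) and 32.7% on V (18 of 55, 20.7 to 46.7%). The share of all genes on each chromosome was not counted, so these values have no background beside them.

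Ribosomal protein hosts often had ARID-1 summits at their own starts, and their snoRNA genes were overlapped about as often as nuclear genes of all classes. The 183 same-strand members lie in 159 host genes. In the 14 ribosomal protein hosts, which include rpl-6, rpl-7A, rps-12 and ubl-1, 1 of 21 snoRNA genes was overlapped (4.76%, interval 0.12 to 23.8%). This is close to the 4.85% of all nuclear genes. Of the 14 hosts, 10 had a summit within 500 bp of their own 5' end, against 5.68% of all protein-coding genes. The 1 member is B0041.9, 54 bases long, in rpl-4. Its summit lies at 136, beyond its 3' end, and its gene begins 184 bp from the start of the host. Of the 4 translation factor and tRNA synthetase hosts (eef-1G, eif-4A3, fars-1 and iff-2), 0 of 6 members were overlapped, which allows a share of up to 45.9%, and 2 of the 4 hosts had a summit at their start. The fars-1 member, T08B2.13, had a conservative peak ending 3 bp before it. In prp-8, a splicing factor gene, the count was 0 of 2, which allows up to 84.2%. In the 140 other hosts 30 of 154 members were overlapped (19.5%, 13.6 to 26.6%), and 22 of these hosts had a summit at their start. Promoter letters stood upstream of 0 of the 21 members in ribosomal protein hosts and of 33 of the 154 in other hosts. Host groups are small, and the interval of the ribosomal group reaches past the share of the others.

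Of the 23 hosts with more than 1 same-strand member, 1 had overlapped members (4.35%, interval 0.11 to 21.9%), namely frm-7 with its strong peak, against 29 of 136 hosts with a single member (21.3%, 14.8 to 29.2%). These intervals overlap. nol-56, which encodes a core protein of C/D complexes, holds 4 snoRNA genes, and 0 were overlapped. K07C5.10, one of them, had a ranked peak of 17.4 in replicate 1 and none in replicate 2. rpl-6 and the topoisomerase gene top-2 hold 3 each, with 0 overlapped. A summit at the host's own start was about as frequent in hosts with and without a peak on the snoRNA gene: it was present at 6 of 30 hosts with an overlapped member (20.0%, 7.71 to 38.6%) and at 29 of 129 hosts without (22.5%, 15.6 to 30.7%). Both shares are above the 5.68% of all protein-coding genes. In at least rpl-4 and tct-1, the summit of the peak on the snoRNA gene itself lies within 500 bp of the host's start, so that peak enters both readouts. Within the hosts, with the exons of all transcripts of a gene merged, peaks stood in 39 of the 143 introns that hold a same-strand snoRNA gene (27.3%), against 24 of 1228 other introns (1.95%). A peak anywhere in the intron counted, so it need not touch the snoRNA gene. Of the same-strand members lying wholly in introns, only 28 were themselves overlapped. The 143 introns hold 145 snoRNA genes, and 2 of the introns, in top-2 and klp-19, hold more than 1. The introns with a snoRNA gene are longer, with a median of 390 against 126.5 bases, and per 100 kb of intron the counts were 12.2 against 3.38 overlapped introns. Against other introns at least as long as the shortest intron with a snoRNA gene, the counts were 12.2 and 2.78.

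Genes for core proteins of snoRNA complexes, and for assembly and processing factors, were examined beside the snoRNA genes themselves. Of 12 such genes, all matched in the annotation, 8 had a summit within 500 bp of the 5' end, against 5.68% of all protein-coding genes. fib-1, the fibrillarin that methylates RNA in C/D complexes, had its nearest summit at -99, with signals of 32.0 in replicate 1 and 51.6 in replicate 2. nol-58, another C/D core gene, had one at -326 with 49.3 and 49.6. Among H/ACA genes, dkc-1 (K01G5.5), the pseudouridine synthase, had a summit at -299 with 26.4 and 42.6, nola-3 at 138 with 23.9 and 39.4, and Y48A6B.3 at -337 with 57.5 and 29.0. The assembly helicases ruvb-1 and ruvb-2 had summits at -62 and -112, and the exonuclease gene xrn-2 at 4. The 4 genes without a summit at the start were nol-56, snu-13 (M28.5), garr-1 (Y66H1A.4) and dao-5. Signals of the 8 summits at gene starts reached at most 57.5 in replicate 1 (Y48A6B.3) and 51.6 in replicate 2 (fib-1). The medians over overlapped snoRNA genes were 58.4 and 54.2 (76 members each), a little above these highest values. The difference was not tested.

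Of the 266 members not overlapped, 9 had a conservative peak that ended in the 100 bp just upstream of the gene, and these include the 5 with the highest mean signal among the 60 not overlapped that had a ranked peak on the gene in both replicates. T02E1.9, outside genes, had 89.1 in replicate 1 and 111 in replicate 2 (99.9 ± 15.3). T08B2.13, in fars-1, the gene of a phenylalanyl-tRNA synthetase, had 86.8 and 97.5 (92.2 ± 7.53). Y37E3.20, in pcyt-2.1, had 81.5 and 94.8 (88.2 ± 9.46), C27H6.5 in unc-41, a stonin gene, had 94.9 and 66.2 (80.5 ± 20.3), and Y38F2AR.14 had 56.7 and 62.8 (59.7 ± 4.30). Their conservative peaks end between 2 and 13 bp before the gene, and their summits lie between -40 and -26, as those of many overlapped members do. These 5 peaks are narrower than most, at 75 to 101 bp. Counting a peak on the gene or the 100 bp before it raises the total to 89, with 37 same-strand, 11 opposite-strand and 41 outside members. Some other members had a strong peak in 1 replicate only. F32E10.10 had 89.8 in replicate 1, and T10B9.11 and F12F6.11 had 80.4 and 75.2 in replicate 2, each in that replicate's thresholded list and with no peak on the gene in the other replicate's ranked list. In all, 13 members were in a replicate's thresholded list but not in the conservative list. F54E7.10, in rps-12, had ranked peaks of 43.5 and 21.4 and a −log10 irreproducible discovery rate of 1.58, under the 2 that the conservative list requires, whereas every overlapped member had at least 2.21. In the ranked lists 177 members in replicate 1 (51.2%) and 173 in replicate 2 (50%) met any peak, and 128 members not overlapped met none in either replicate.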

How the data were processed

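Anti-GFP ChIP-seq peaks of tagged ARID-1 were taken from the deposited lists of 2 replicates and of the series, on ce11, per the labels. The deposited signal and the summit position per peak are the authors' values. In the ranked lists, the authors also deposited a −log10 irreproducible discovery rate (IDR) per peak. The labels and file notes do not name the aligner or peak caller or say how signal was scaled between lists, so an SD or log2 ratio of signal over the replicates may include a difference in scale. The lists hold no read counts, so depth is unknown. All peak ends lay within the chromosome lengths of WBcel235, the same build, and only nuclear chromosomes were used.

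A gene was overlapped where a conservative peak shared at least 1 bp with it. The peak of highest signal gave its summit, counted along the snoRNA strand from the 5' end, and replicate values came from each replicate's ranked list. A gene counted as inside where a protein-coding gene spans it whole. For 6 members, counting a partial overlap as inside would change the class. Shares have exact binomial (Clopper-Pearson) 95% intervals, which cover counting error only. With 1 group no test between conditions exists, and none between gene classes was run. Upstream sequence (100 bases) was read from the RefSeq FASTA of WBcel235. Genes named in the text were the 12 highest overlapped members by mean replicate signal (defined where both ranked lists have a peak on the gene), the 4 highest of each position class, the 5 highest not overlapped, the 3 with the largest and the 3 with the smallest difference between replicates, hosts with most overlapped members, and members with a literature name. Others were chosen after their values were seen. The members, lists and letters were chosen with earlier results of these data known. Python 3.11.15, pandas 2.3.3 and scipy 1.17.1 were used, and the overlap and summit code was checked on simulated peaks.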

Additional observations from a re-analysis of the deposited data

How the results depend on the processing

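Depth and the control are unknown here, so no limit of detection can be given, and 2 replicates of 1 group leave the class differences untested. The number of overlapped snoRNA genes stayed between 59 and 89, within a factor of 1.5 of 80, under every alternative run. The same-strand share stayed below the outside share in all of them, but not in the unthresholded ranked list of the series, where it was 62.3% against 54.6%. Of 66 values under alternatives, 37 moved by less than the SD over the replicate lists (for the count, by less than a factor of 1.5) and 29 moved by more. Some of the 37 could not move. Leaving out peaks over a tRNA or snRNA gene removed 0 peaks on members, and counting overlapping or identical genes once left all 346. Values under these alternatives say nothing about stability. The cause was not tested.

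The lists of single replicates gave same-strand shares of 13.7 to 15.3%, opposite-strand shares of 21.2 to 30.3%, outside shares of 26.2 to 26.9%, a median summit of -34.5 to -32.0 and a median signal of 71.9 to 72.1 in their own scale. The other thresholded list gave an outside share of 28.46%. Peaks at or above the median signal gave 13.7% same-strand, 21.2% opposite-strand and 24.6% outside, with a summit at -35.5 and a signal of 144. Requiring 50% of the gene covered gave 15.3% same-strand and 23.1% outside, with -26.0 and 105. A summit within 100 bp of the gene gave 19.1% and 29.2%, with a signal of 128.4. Leaving out genes within 500 bp of a protein-coding 5' end gave 19.2% and 23.3%, with a signal of 128.1. Counting any overlap with a protein-coding gene as inside gave 29.0% outside. Requiring an intron gave 19.6% same-strand and 37.0% opposite-strand. Counting a peak on the 100 bp upstream, an alternative chosen after seeing the data, gave 20.2% same-strand and 31.5% outside. No paired analysis was possible because there is 1 group.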
